A study of Rattus norvegicus with 31 samples.

Results

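The genes described here are the 45 Wnt family genes of the rat table, taken by name from 32883 gene entries. They are the 19 Wnt ligands, the 4 R-spondins (Rspo1 to Rspo4), 12 receptors (Frizzled genes, Fzd, with Lrp5 and Lrp6) and 10 secreted inhibitors (Sfrp, Dkk, Frzb and Wif1). Every name made of Wnt, Fzd, Sfrp or Dkk and a number was taken, with Frzb, Wif1, Lrp5, Lrp6 and the R-spondins added by name. The rule itself used no measured level, although earlier results of these data were known when the genes were chosen.

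Bulk RNA sequencing was run on fat of male Sprague-Dawley rats aged 10 to 15 weeks, with a stated time point of 15 weeks and an RNA integrity number of at least 7.5. A silk ligature was tied around the descending thoracic aorta in coarcted rats (coarct) and left untightened in sham-operated rats (sham), and telemetry 4 weeks later is described as showing a pressure step of 20 mmHg (systolic) across it. Perivascular adipose tissue (PVAT), the fat that ensheathes the aorta, was taken on either side of the ligature, which gave the groups coarct above (n = 6), sham above (n = 5), coarct below (n = 6) and sham below (n = 5). Brown adipose tissue (BAT), whose place in the body the labels do not give, made up coarct BAT (n = 5) and sham BAT (n = 4). Every animal carried the surgery or its sham, so no unoperated rat was part of the design.

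Wnt proteins are secreted signals that bind a Frizzled receptor together with the coreceptors Lrp5 or Lrp6 and stabilise beta-catenin, which acts with TCF/LEF factors on target genes; Wnt5a, Wnt5b and Wnt11 are best known for signalling without beta-catenin. R-spondins raise the amount of Frizzled at the cell surface by acting on Lgr receptors and the ubiquitin ligases Rnf43 and Znrf3. Sfrp proteins, Frzb and Wif1 bind Wnts outside the cell, whereas Dkk1, Dkk2 and Dkk4 bind the coreceptors. In mouse fat, beta-catenin signalling is known for holding precursor cells back from becoming adipocytes.

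Promoter sequence was available in RefSeq (GRCr8) for 30 of the 45 genes, and 4 are printed as the 250 bases before the transcription start, read along the gene. Fzd4 is shown because it had the highest level of the 45. Rspo1, Wnt2b and Wnt4 are shown because each was related to mesothelial transcripts in PVAT below the ligature. Frzb was related there too, less closely, and is not shown. Fzd4 lies at chr1:152692257-152692506 (+ strand), Rspo1 at chr5:142536040-142536289 (+ strand), Wnt2b at chr2:195156946-195157195 (- strand) and Wnt4 at chr5:154797200-154797449 (+ strand). Capitals mark GC boxes, the letters GGGCGG or, on the other strand, CCGCCC, which can overlap each other.
Fzd4: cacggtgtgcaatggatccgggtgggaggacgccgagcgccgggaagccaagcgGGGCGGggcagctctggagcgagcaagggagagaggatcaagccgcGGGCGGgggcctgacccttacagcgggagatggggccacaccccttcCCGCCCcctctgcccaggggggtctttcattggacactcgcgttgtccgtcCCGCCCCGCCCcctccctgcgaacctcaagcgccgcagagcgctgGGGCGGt
Rspo1: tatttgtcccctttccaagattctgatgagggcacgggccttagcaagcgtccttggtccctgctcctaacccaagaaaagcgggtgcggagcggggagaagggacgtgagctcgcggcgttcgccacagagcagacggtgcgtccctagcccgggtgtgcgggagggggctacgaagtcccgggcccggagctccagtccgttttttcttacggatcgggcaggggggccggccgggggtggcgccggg
Wnt2b: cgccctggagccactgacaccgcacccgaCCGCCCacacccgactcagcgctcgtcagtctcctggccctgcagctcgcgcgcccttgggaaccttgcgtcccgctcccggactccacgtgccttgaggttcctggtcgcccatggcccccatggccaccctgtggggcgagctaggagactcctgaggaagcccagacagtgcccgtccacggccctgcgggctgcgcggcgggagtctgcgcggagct
Wnt4: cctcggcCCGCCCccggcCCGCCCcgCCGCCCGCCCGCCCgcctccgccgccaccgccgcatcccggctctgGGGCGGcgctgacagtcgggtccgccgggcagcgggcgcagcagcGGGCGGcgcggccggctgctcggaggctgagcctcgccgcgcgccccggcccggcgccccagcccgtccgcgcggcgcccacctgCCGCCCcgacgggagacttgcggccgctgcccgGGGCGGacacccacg
The 4 windows held 6, 0, 1 and 9 GC boxes in the order printed, with GC contents of 71.6%, 66.4%, 71.6% and 86.4%. GC boxes were found in 16 of the 30 Wnt family promoters (53.3%), against 30.5% of all 33469 promoters in the table. The core of the TCF/LEF site, CTTTGA or TCAAAG, was found in 3 of the 30 (Dkk1, Fzd7 and Wnt8a, 10%), against 13.9% of all promoters, and in none of the 4 windows printed. The TATA box letters TATAAA, searched on the gene strand, were found in Dkk1 alone of the 30 (3.33%), against 8.06% of all promoters. These matches describe letters in the windows and say nothing of which factors bind there.

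The 31 libraries held 15713160 to 26530733 counts. A list of 13 brown adipocyte genes summed to 10328 to 20025 CPM (counts scaled to the library total, without gene length) over the libraries. Its largest member was Fabp4, with group medians of 5434 to 6272 CPM, and Ucp1 had 1275 to 1719 CPM. Zic1 had a median of 0 CPM in every PVAT group and 5.67 CPM in both BAT groups, and Elovl3 0 CPM in every group. The sum therefore does not show that PVAT and BAT were equally brown. Transcripts of other tissues differed between libraries. The cardiac muscle list (13 genes) had a median of 755 CPM in coarct above and 1016 CPM in sham above, against 3.6 CPM in coarct below and 3.84 CPM in sham below. The sympathetic neuron list (18 genes) passed 100 CPM in 5 libraries, coarct below 23, 25, 29 and 30 and sham below 28, where the numbers are those in the sample titles. The skeletal muscle list (10 genes) passed 1000 CPM in coarct above 29, coarct below 25, coarct BAT 19 and sham BAT 22. In 17 libraries a mitochondrial 12S rRNA entry passed 500 CPM and in 14 it did not. The library coarct BAT 29 stood apart with an endothelial list of 357 CPM, where the other BAT libraries had 504 CPM or more, and with the lowest Fzd4, Wnt5a and Lrp6 of all libraries. Sham BAT 22 stood apart too, with the highest fibroblast and progenitor list of all libraries (15561 CPM, the other BAT libraries 3088 to 8954 CPM), a Schwann cell list of 1284 CPM (the others 363 to 690 CPM) and a macrophage list of 824 CPM (the others 205 to 381 CPM).

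Of the 45 genes, 26 reached a mean of at least 1 FPKM (fragments per kilobase of gene, scaled to library total) in at least 1 group, 7 reached between 0.1 and 1 FPKM, 8 stayed below 0.1 FPKM and 4 had no count in any library. The 4 without counts were Dkk1, Fzd8, Wnt3a and Wnt8a, for which a count of 0 allows up to 3 counts a library, or 0.113 to 0.191 CPM by library. Receptors and inhibitors were mostly in the upper class, with 8 of 12 and 9 of 10, whereas 7 of 19 ligands and 2 of 4 R-spondins were there.

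Among receptors, Fzd4, which also serves as the receptor of norrin in retinal vessels, dominated. It averaged 61.8 ± 9.28 FPKM in coarct above, 58.2 ± 11.9 in sham above, 66.0 ± 9.03 in coarct below, 60.8 ± 11.1 in sham below, 49.5 ± 17.9 in coarct BAT and 57.6 ± 15.5 in sham BAT (SD). Fzd4 made up 79.1% ± 3.63 of the summed Frizzled FPKM (SD, n = 31 libraries), with a lowest share of 72.5% and a highest of 86.0%. Fzd7 followed at a mean of 7.06 FPKM over the 31 libraries, and Fzd2, Fzd6 and Fzd1 lay at 2.72, 2.66 and 1.99 FPKM. Fzd5 averaged 0.823 FPKM, Fzd3 0.157 FPKM and Fzd9 0.12 FPKM, while Fzd10 had 33 counts over 8 libraries, 19 of them in coarct below 25. The coreceptor Lrp5 averaged 9.85 FPKM. Lrp6 averaged 15.2 FPKM and spread widely within groups, with a lowest value of 2.68 FPKM in coarct BAT 29 and a highest of 28.4 FPKM in sham above 24.

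Among ligands, Wnt11, Wnt5a and Wnt5b together made up 77.6% ± 7.32 of the summed Wnt FPKM (SD, n = 31), and 58.1% in the library with the lowest share. Wnt11 averaged 7.08 ± 0.822 FPKM in coarct above, 7.30 ± 1.46 in sham above, 6.75 ± 1.06 in coarct below, 7.67 ± 0.761 in sham below, 6.77 ± 1.79 in coarct BAT and 5.41 ± 1.28 in sham BAT. Wnt5a and Wnt5b averaged 5.91 and 4.33 FPKM over all libraries. Wnt2b reached 3.20 ± 2.42 FPKM in coarct below, Wnt9a 1.09 ± 0.523 FPKM in coarct above, Wnt2 1.55 ± 0.359 FPKM in sham BAT and Wnt8b 1.0 ± 0.654 FPKM in coarct BAT. Wnt10b, Wnt4, Wnt6 and Wnt9b stayed under 1 FPKM in every group mean, and Wnt1, Wnt3, Wnt7a, Wnt7b, Wnt10a and Wnt16 had 2 to 32 counts over all libraries. Some ligand genes sit next to each other in the rat genome, and in each such pair the levels were unequal: on chromosome 9, Wnt6 averaged 0.255 FPKM and Wnt10a 0.00862 FPKM; on chromosome 10, Wnt9a averaged 0.859 FPKM beside Wnt3a with no count, and Wnt9b 0.135 FPKM beside Wnt3 at 0.00311 FPKM. On chromosome 7, Wnt10b averaged 0.423 FPKM and its neighbour Wnt1 0.0165 FPKM.

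R-spondins and inhibitors came next. Rspo1 and Rspo4 averaged 2.65 and 1.80 FPKM, Rspo3 0.203 FPKM, and Rspo2 had 42 counts over 15 libraries. Of the inhibitors, Dkk4 varied least, with 5.63 FPKM on average and a highest library 2.02 times the lowest, and Sfrp2 averaged 5.39 FPKM with a highest library of 15.4 FPKM. Sfrp4, Sfrp5 and Sfrp1 averaged 3.63, 3.42 and 3.30 FPKM, and Dkk2, Wif1, Dkk3 and Frzb 2.03, 1.77, 1.59 and 1.5 FPKM. In RefSeq, 11 of the 45 genes overlap another gene, among them Wnt8b with Sec31b, Wnt5b with Fbxl14, Sfrp4 with Nme8, and both Wnt1 and Wnt10b with Tuba1c; Dkk4 lies directly beside Polb without overlap. Whether the counting used strand is not given in the sources used here, so reads of such pairs may not be separable and the levels of these genes are uncertain.

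**Figure D1:**
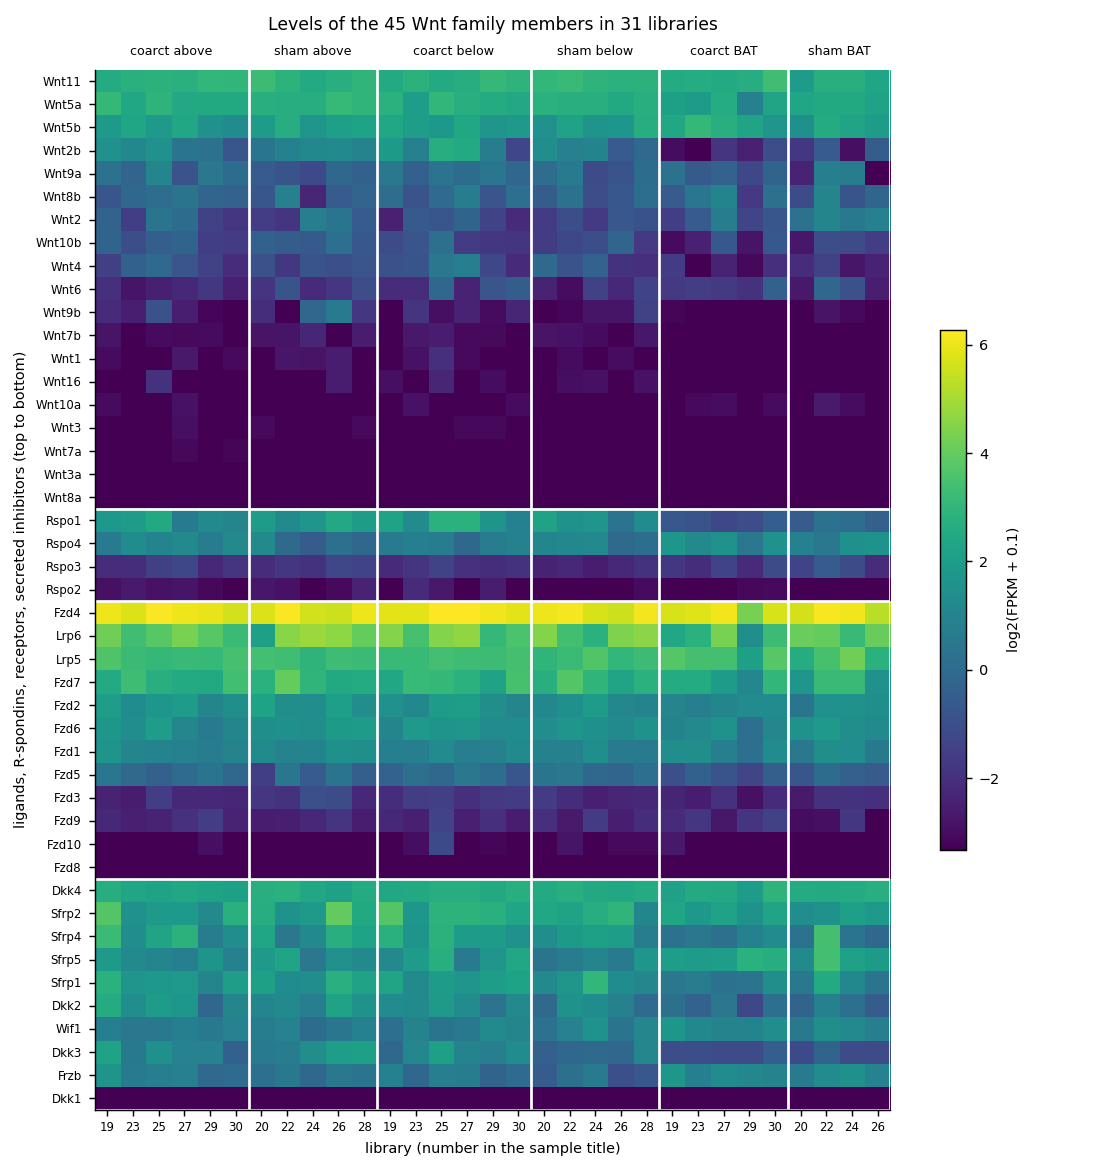
Level of each of the 45 genes (y axis, grouped by role and ordered by mean level) in each of the 31 libraries (x axis, title number within group), as log2(FPKM + 0.1) by colour. Fzd4 is the brightest row in every group, and Wnt2b, Rspo1 and Dkk3 are darker in the BAT columns than in most PVAT columns.

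The comparison of PVAT with BAT asks which Wnt genes differ between a vessel's own fat and brown fat elsewhere, and it was made within each kind of surgery. Rspo1, a secreted amplifier of Wnt signalling, was higher in PVAT than in BAT in all 4 of these comparisons. Dkk3, a divergent member of the Dickkopf family, was higher in 3, and Wnt2b, a ligand of beta-catenin signalling, and Sfrp1, a Wnt-binding inhibitor, in 2 each. Dkk2 was higher in coarct above, and Frzb and Rspo4 were lower in coarct below, in each case against coarct BAT. A gene was called at an edgeR quasi-likelihood p under 0.05 after Benjamini-Hochberg adjustment over all genes tested, and log2 differences are PVAT minus BAT.

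In coarct above against coarct BAT, 5 of 30 genes tested were higher and 0 lower, beside 183 of all 14276 genes called (1.28%; 0.918% higher and 0.364% lower). In coarct below against coarct BAT, 4 of 30 were higher and 2 lower, beside 600 of 14276 (4.2%; 2.71% higher and 1.49% lower). In sham above against sham BAT, 2 of 31 were higher and 0 lower, beside 92 of 14190 (0.648%; 0.451% higher and 0.197% lower), and in sham below against sham BAT 1 of 31 was higher and 0 lower, beside 115 of 14190 (0.81%; 0.381% higher and 0.43% lower). No receptor was called in any of the 4. DESeq2's Wald test called 9, 11, 4 and 6 Wnt genes in that order, beside 2.15%, 6.87%, 1.08% and 1.47% of the genes it tested. An unadjusted p under 0.05 was found for 13, 14, 11 and 9 Wnt genes in the same order, beside 16.7%, 23.9%, 8.12% and 10.5% of all genes. The median log2 difference of the genes tested was 0.19, 0.32, 0.13 and 0.06 in that order, beside medians of -0.01, 0.00, -0.02 and -0.02 over all genes. The 2 coarct comparisons share the coarct BAT libraries and the 2 sham comparisons the sham BAT libraries. The first count was 2 without coarct above 19, 23 or 25 or without coarct BAT 19, 23 or 29, and 3 without coarct above 27; the second was 10 without coarct BAT 27. Lower levels in bulk tissue do not tell fewer cells of a type from less RNA per cell.

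Rspo1 (ENSRNOG00000009656, chromosome 5, start 142986526 in the files' coordinates, whose build is not given) had 1.47 to 5.62 FPKM in coarct above (median 2.84) and 1.75 to 6.88 FPKM in coarct below (median 3.77). Coarct BAT libraries 19, 23, 27, 29 and 30 had 0.515, 0.453, 0.325, 0.376 and 0.624 FPKM. Every coarct PVAT library lay above every coarct BAT library. The sham above libraries 20, 22, 24, 26 and 28 had 3.76, 2.28, 3.09, 5.49 and 3.87 FPKM, the sham below libraries of the same numbers 4.56, 2.84, 3.10, 1.16 and 2.39 FPKM, and sham BAT 20, 22, 24 and 26 had 0.583, 1.08, 0.971 and 0.666 FPKM. The groups did not overlap here either, although sham below 26 came close to sham BAT 22. The log2 difference was 2.56 (SE 0.389, edgeR adjusted p = 0.00153) in coarct above, 2.97 (SE 0.392, adjusted p = 0.000409) in coarct below, 2.05 (SE 0.348, adjusted p = 0.00839) in sham above and 1.75 (SE 0.345, adjusted p = 0.0303) in sham below. The first 3 held under each of 18 to 20 alternatives. The sham below call did not. With the title number as a block, which paired these libraries, the adjusted p was 0.0701, and with limma on log2(FPKM + 1) 0.167. Without sham BAT 22, the only sham library rich in skeletal muscle transcripts, it was 0.0774. Without any 1 of sham below 20, 22 or 24 or of sham BAT 20, 24 or 26 it was 0.0515 to 0.0923.

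Dkk3 (ENSRNOG00000016343, chromosome 1, start 176940693) had 0.686 to 4.48 FPKM in coarct above (median 1.82) and 0.851 to 4.24 FPKM in coarct below (median 1.95). Coarct BAT libraries 19, 23, 27, 29 and 30 had 0.378, 0.395, 0.357, 0.365 and 0.637 FPKM. Coarct PVAT and coarct BAT did not overlap, the nearest pair being coarct above 30 and coarct BAT 30. Sham above 20, 22, 24, 26 and 28 had 1.48, 1.55, 2.61, 4.01 and 4.32 FPKM, sham below of the same numbers 0.678, 0.841, 0.891, 0.822 and 2.07 FPKM, and sham BAT 20, 22, 24 and 26 had 0.350, 0.745, 0.353 and 0.371 FPKM. Sham above stood clear of sham BAT, whereas sham below 20 lay under sham BAT 22. The log2 difference was 2.14 (SE 0.381, adjusted p = 0.00678) in coarct above, 2.11 (SE 0.381, adjusted p = 0.0056) in coarct below and 2.52 (SE 0.419, adjusted p = 0.00718) in sham above, and 1.23 (SE 0.406, adjusted p = 0.236) in sham below. The coarct below call was lost without the coarct below libraries rich in neuron transcripts (adjusted p = 0.25, at a difference of 1.45). That fit kept 2 coarct below libraries. The coarct above call was lost with limma (adjusted p = 0.13).

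Dkk3 levels inside PVAT are given here beside transcripts of other tissues. Below the ligature the 4 coarct libraries rich in neuron transcripts had 1.62 to 4.24 FPKM and the sham one 2.07 FPKM, while the other libraries had 0.851 and 1.85 FPKM in coarct below and 0.678 to 0.891 FPKM in sham below. Above the ligature the lowest Dkk3 within each group was in coarct above 30 and sham above 20, where the cardiac list summed to 4.02 and 46.1 CPM. Coarct above 23, with 537 CPM of that list, had 1.37 FPKM of Dkk3, under the 1.48 FPKM of sham above 20. Dkk3 was highest in coarct above 19 and sham above 28, where that list summed to 3320 and 2176 CPM. Between these ends the order was not kept. Sham above 22 and 26 had 1020 and 1016 CPM of the list, with Dkk3 at 1.55 and 4.01 FPKM. The part of neuron and cardiac transcripts in the Dkk3 differences was not tested.

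Wnt2b (ENSRNOG00000014385, chromosome 2, start 207440886) had 0.496 to 2.81 FPKM in coarct above (median 1.67) and 0.311 to 6.21 FPKM in coarct below (median 2.67). Coarct BAT 19, 23, 27, 29 and 30 had 0.026, 0, 0.174, 0.0835 and 0.4 FPKM, from 1, 0, 5, 3 and 14 counts. Coarct above lay clear of coarct BAT, and coarct below overlapped it through library 30 alone. Sham above 20, 22, 24, 26 and 28 had 1.22, 1.78, 2.13, 2.29 and 1.86 FPKM, sham below of the same numbers 2.52, 1.70, 1.93, 0.573 and 0.861 FPKM, and sham BAT 20, 22, 24 and 26 had 0.198, 0.574, 0.0322 and 0.611 FPKM. Sham above was also clear of sham BAT, and sham below 26 lay within it. The log2 difference was 3.52 (SE 0.781, edgeR adjusted p = 0.0304) in coarct above and 4.34 (SE 0.793, adjusted p = 0.00598) in coarct below, against 2.28 (SE 0.552, adjusted p = 0.0966) in sham above and 2.07 (SE 0.55, adjusted p = 0.121) in sham below. The coarct below call held under all 20 alternatives. With the title number as a block the call in coarct above was lost. The coarct above call was lost with limma (adjusted p = 0.197), without the libraries rich in skeletal muscle transcripts (0.124, at a log2 difference of 3.32) and without any 1 of coarct above 19, 23 or 25 or coarct BAT 19, 23 or 29 (0.0624 to 0.092, at 3.15 to 3.45).

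Sfrp1 (ENSRNOG00000017783, chromosome 16, start 73372007) had 1.98 to 6.92 FPKM in coarct above (median 3.40) and 2.24 to 4.72 FPKM in coarct below (median 3.95). Coarct BAT 19, 23, 27, 29 and 30 had 1.32, 1.55, 1.14, 1.21 and 2.58 FPKM. Coarct BAT 30 overlapped coarct above 29 and coarct below 23, and the other coarct BAT libraries were under all of coarct PVAT. Sham above 20, 22, 24, 26 and 28 had 4.32, 2.42, 2.5, 6.80 and 4.57 FPKM, sham below of the same numbers 2.22, 3.31, 8.01, 2.44 and 2.09 FPKM, and sham BAT 20, 22, 24 and 26 had 1.35, 5.73, 2.13 and 1.19 FPKM. The sham groups overlapped, with sham BAT 22 well above the other sham BAT libraries. The log2 difference was 1.12 (SE 0.263, edgeR adjusted p = 0.041) in coarct above and 1.11 (SE 0.263, adjusted p = 0.0251) in coarct below, against 0.62 (SE 0.455, adjusted p = 0.841) in sham above and 0.52 (SE 0.455, adjusted p = 0.808) in sham below. Without sham BAT 22, the library with the highest fibroblast and progenitor list, the sham differences were 1.17 (SE 0.455, adjusted p = 0.348) above and 1.07 (SE 0.453, adjusted p = 0.421) below; the part of those transcripts was not tested. Sfrp4, at 10.8 FPKM in the same library, differed by 0.23 (SE 0.614, adjusted p = 0.99) in sham above and 0.017 (SE 0.614, adjusted p = 0.998) in sham below, and by 1.69 (SE 0.463, adjusted p = 0.152) and 1.48 (SE 0.46, adjusted p = 0.24) without it. For Sfrp1 both coarct calls were near the threshold. The call above was lost under 14 of 20 alternatives, at an adjusted p of up to 0.131, among them leaving out any 1 of coarct above 19, 23, 25, 27 or 30 or coarct BAT 19, 23 or 29 (0.071 to 0.115). The call below was lost under 6 of 20, among them leaving out coarct BAT 19, 23 or 29 (0.0501 to 0.0553).

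The remaining calls were each made in 1 comparison. Dkk2 (ENSRNOG00000011360, chromosome 2, start 237148941), a coreceptor-binding inhibitor, averaged 3.02 ± 1.72 FPKM in coarct above (n = 6) and 0.889 ± 0.382 FPKM in coarct BAT (n = 5), a log2 difference of 1.59 (SE 0.362, adjusted p = 0.0369). It was lost with limma (0.154), in the fit without the neuron-rich libraries, none of which is in either group (0.0747, at a difference of 1.56), and without any 1 of coarct above 19, 23, 25 or 27 or coarct BAT 19, 23, 29 or 30 (0.0621 to 0.0917). Frzb (ENSRNOG00000007765, chromosome 3, start 67635607), a Wnt-binding inhibitor, averaged 1.24 ± 0.46 FPKM in coarct below and 2.27 ± 0.635 FPKM in coarct BAT, and its log2 difference was -1.10 (SE 0.304, adjusted p = 0.0478). It was lost under 11 of 20 alternatives, among them leaving out any 1 of coarct below 23, 25, 27, 29 or 30 or coarct BAT 19 or 29 (0.0583 to 0.109). In sham below Frzb stood just outside the threshold at -1.40 (SE 0.311, adjusted p = 0.0508). Rspo4 (ENSRNOG00000009662, chromosome 3, start 147358858) averaged 1.49 ± 0.328 FPKM in coarct below and 2.47 ± 0.76 FPKM in coarct BAT, a log2 difference of -0.91 (SE 0.249, adjusted p = 0.0469). That call was lost under 15 of 20 alternatives, among them leaving out any 1 of the 6 coarct below libraries or coarct BAT 19 or 30 (0.0581 to 0.112).

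**Figure D2:**
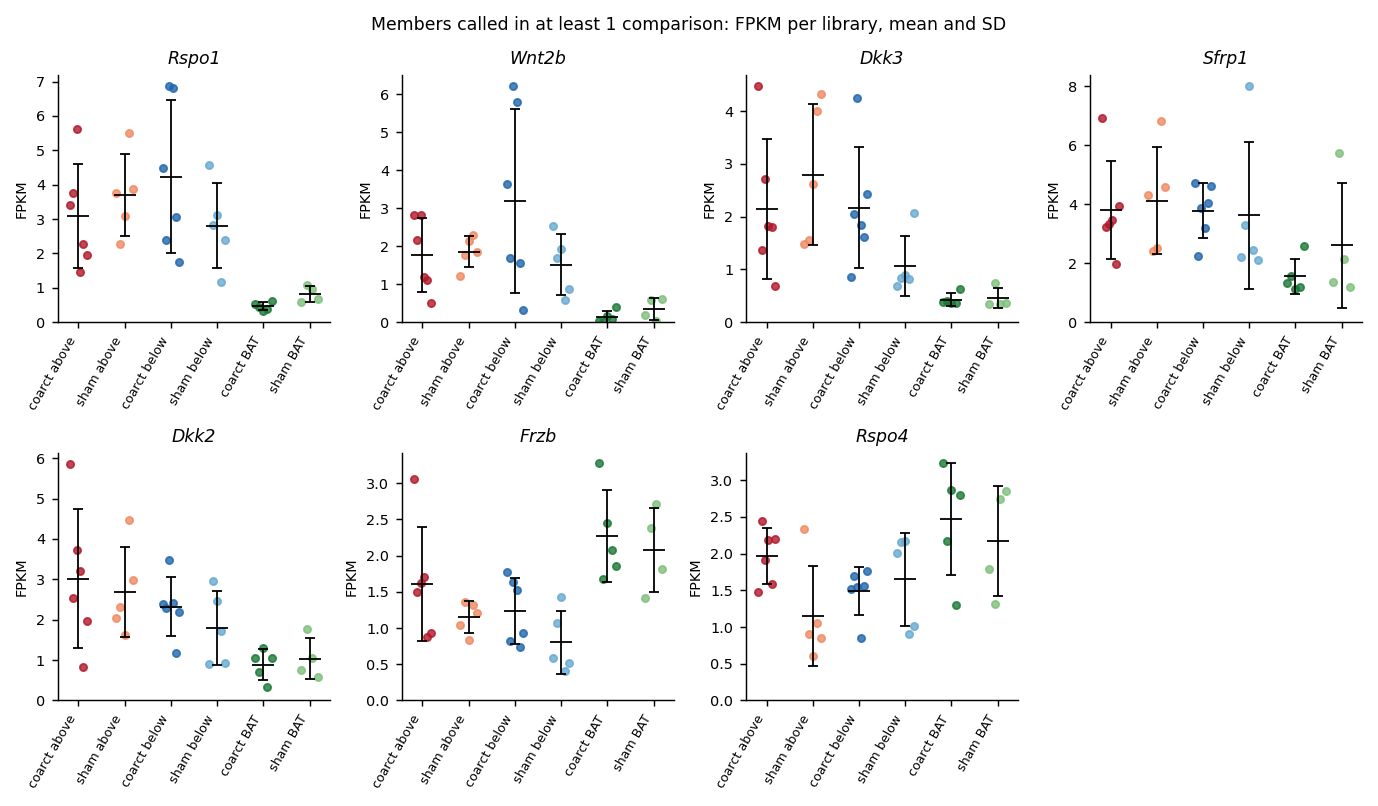
FPKM of the 7 called genes per library (points) with the group mean and SD (bars), PVAT groups left of BAT groups in each panel and coarct left of sham. Rspo1 lies between 1.16 and 6.88 FPKM in PVAT and at 1.08 FPKM or less in BAT, and the other panels overlap in at least 1 pair of groups.

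Other Wnt genes had PVAT to BAT differences that did not pass. Sfrp5, described as an adipokine in mouse, averaged 2.36 ± 0.735 FPKM in coarct above and 4.98 ± 1.48 FPKM in coarct BAT, without overlap, at a difference of -1.28 in log2 (SE 0.323, edgeR adjusted p = 0.0628). Wnt4, a ligand with roles in kidney and gonad, averaged 0.718 ± 0.613 FPKM in coarct below and 0.095 ± 0.0941 FPKM in coarct BAT, a difference of 2.66 (SE 0.752, adjusted p = 0.0535). Wnt2 averaged 0.353 ± 0.133 FPKM in sham below and 1.55 ± 0.359 FPKM in sham BAT, a difference of -2.13 (SE 0.561, adjusted p = 0.117). Of the receptors, Fzd4 differed by 0.20 (SE 0.179) in coarct above, 0.25 (SE 0.179) in coarct below, -0.10 (SE 0.189) in sham above and 0.06 (SE 0.189) in sham below, and Fzd5 had the lowest adjusted p in coarct below, 0.139 at a difference of 0.66 (SE 0.26).

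**Figure D3:**
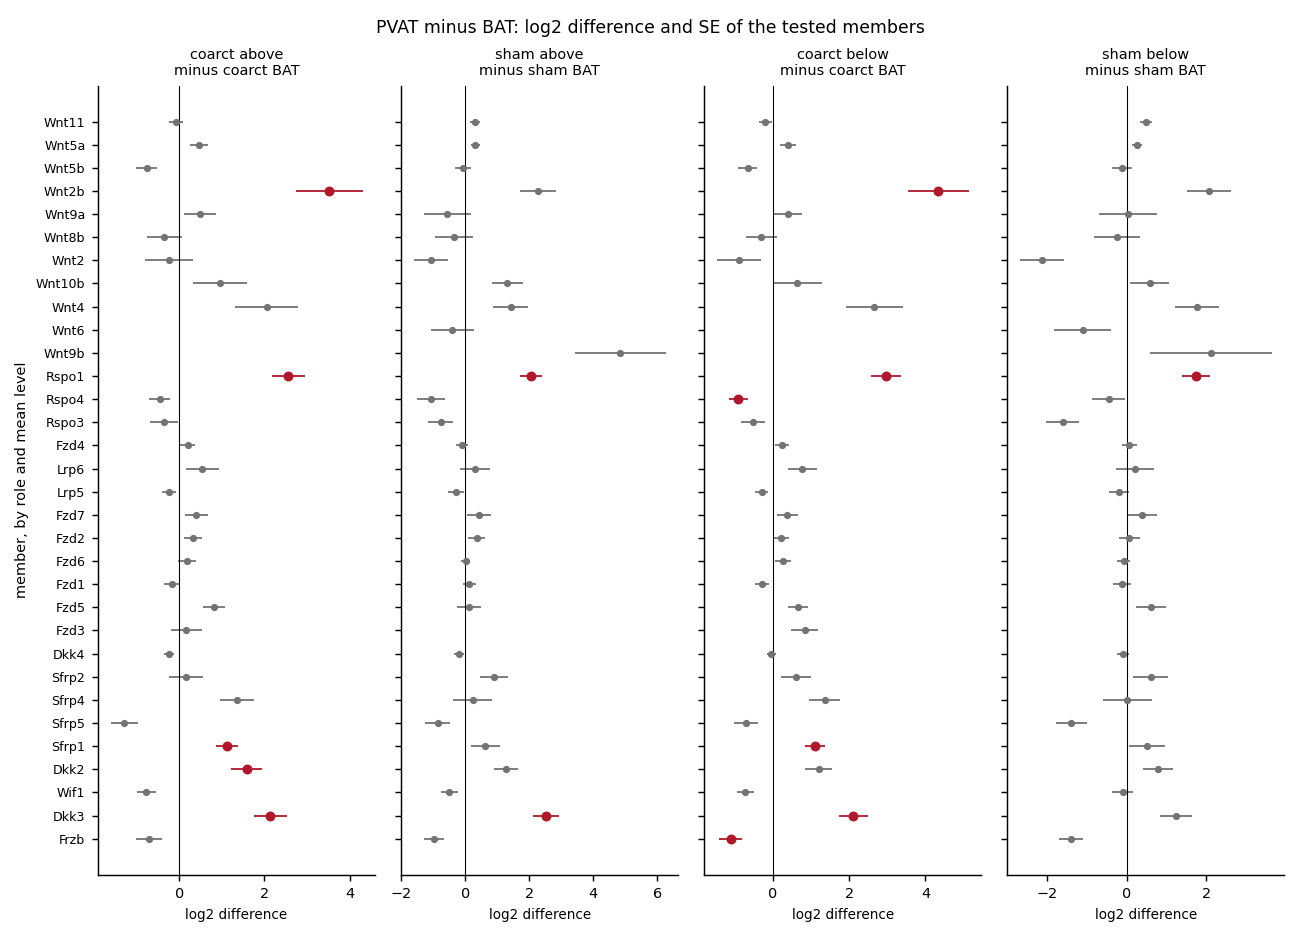
Log2 difference, PVAT minus BAT, with its SE for each gene tested (y axis, by role and mean level) in the 4 comparisons, each panel with its own x range. Called genes are red: Rspo1 is red and to the right of 0 in all 4 panels, and Frzb and Rspo4 are red and to the left of 0 in coarct below.

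Whether the depot differences themselves differed with surgery was tested as an interaction in a fit of all 31 libraries, added after the data were seen. Of 32 genes tested 0 passed for the site above, where 0 also had an unadjusted p under 0.05 (5.55% of all genes), and 0 passed for the site below, where 4 did (10.7% of all genes), beside 0 of 15018 genes (0%) called in either. The lowest p belonged to Wnt11 below, at -0.72 (SE 0.237, adjusted p = 0.422), followed by Rspo1 at 1.19 (SE 0.519, adjusted p = 0.438) and Wnt2b at 2.25 (SE 0.981, adjusted p = 0.438). DESeq2 and limma were not run on these 2 contrasts.

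The split of the libraries by mitochondrial rRNA gave values on both sides. For Rspo1 the log2 ratio of mean CPM, PVAT over BAT, was 2.56 in libraries with many and 2.86 in those with few such reads in coarct above, and 2.74 and 3.48 in coarct below. It was 2.57 and 1.82 in sham above, and 1.61 and 2.38 in sham below, where the side with few held 1 PVAT library. For Dkk3 the corresponding ratios were 2.63 and 1.98 in coarct above, 2.24 and 2.36 in coarct below, and 2.96 and 2.34 in sham above. Wnt2b gave 4.47 and 3.09 in coarct above and 4.82 and 4.23 in coarct below, and Sfrp1 1.68 and 0.82 above and 1.53 and 0.97 below. Dkk2 gave 1.49 and 2.21 in coarct above, Frzb -1.07 and -0.59 in coarct below and Rspo4 -0.73 and -0.63 in coarct below, so that each call kept its direction on both sides.

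In PVAT below the ligature Rspo1, Wnt2b and Wnt4 moved with transcripts of the mesothelium, the thin epithelium on the surface of the pleura and its organs. Above it Rspo1 and Wnt2b did, and Wnt4 did not pass. A list of 11 mesothelial genes summed to 37.0 to 149.5 CPM in coarct above, 33.2 to 202.9 CPM in coarct below and 3.46 to 8.91 CPM in coarct BAT. It summed to 56.6 to 127.1 CPM in sham above, 24.2 to 108.7 CPM in sham below and 1.76 to 11.4 CPM in sham BAT. The defining gene Wt1 had medians of 3.77 to 4.87 CPM in the PVAT groups and 0 CPM in both BAT groups, Msln had medians of 28.9 CPM or more in each PVAT group, against 0.145 CPM in coarct BAT and 0 in sham BAT, and Calb2 had a median of 0 CPM in all 6 groups.

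Within PVAT the relation was taken over the 11 libraries of a site, coarct and sham together, for 8 genes at 2 sites. It was taken between log2 of the mesothelial sum and log2 of the gene's CPM with a small constant added. The tests were 2-sided permutation tests of 100000 resamples, with Benjamini-Hochberg adjustment over the 16 relations. No other gene or marker list was related in this way. Whether the relation is particular to these genes or to mesothelium was not tested. Below the ligature Rspo1 followed the mesothelial sum with Pearson's r = 0.976 (permutation p = 1e-05, the smallest these resamples can give, adjusted p = 0.00016) and Spearman's rho = 0.982 (p = 1e-05, adjusted p = 0.00016). Without the 2 libraries farthest from the median, r was 0.95. For Wnt2b below, r was 0.955 (permutation p = 2e-05, adjusted p = 0.00016), rho 0.964 (p = 2e-05, adjusted p = 0.00016) and r without 2 libraries 0.973. For Wnt4 below, r was 0.891 (permutation p = 0.00033, adjusted p = 0.00176), rho 0.827 (p = 0.0026, adjusted p = 0.011) and r without 2 libraries 0.878. The libraries coarct below 25 and 27 were highest for all 3 genes and for the mesothelial sum.

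Above the ligature, Rspo1 gave r = 0.855 (permutation p = 0.00111, adjusted p = 0.00444), rho = 0.718 (p = 0.0162, adjusted p = 0.0432) and r = 0.691 without 2 libraries, and Wnt2b gave r = 0.751 (permutation p = 0.00653, adjusted p = 0.0209), rho = 0.827 (p = 0.00275, adjusted p = 0.011) and r = 0.771 without 2 libraries. Wnt4 above gave r = 0.584 (permutation p = 0.0592, adjusted p = 0.135), rho = 0.545 (p = 0.0867, adjusted p = 0.198) and r = 0.753 without 2 libraries. Frzb below gave r = 0.724 (permutation p = 0.0116, adjusted p = 0.0308), rho = 0.718 (p = 0.0161, adjusted p = 0.0432) and r = 0.501 without 2 libraries, so it rests in part on those. Dkk3, with r = 0.504 above (permutation p = 0.114, adjusted p = 0.228) and 0.205 below (p = 0.543, adjusted p = 0.668), Frzb above, with r = 0.135 (p = 0.696, adjusted p = 0.743), and Dkk2, Sfrp1 and Rspo4 at either site, with r between -0.272 and 0.282, did not pass. The mesothelial sum was higher in every PVAT library than in every BAT library, as was Rspo1, and its part in the depot differences of Rspo1 and Wnt2b was not tested. For Wnt4 no depot difference passed.

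**Figure D4:**
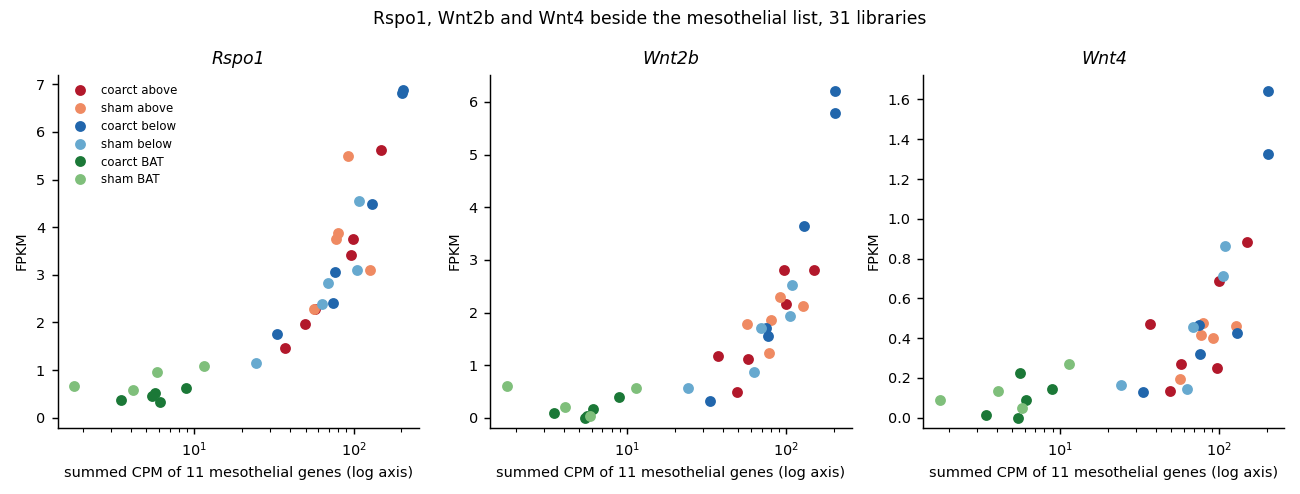
FPKM of Rspo1, Wnt2b and Wnt4 (y axes, linear scale) against the summed CPM of 11 mesothelial genes (x axis, log scale), 1 point per library in the colour of its group. The Pearson correlations in the text were taken with both quantities in log2, within PVAT only. BAT libraries lie at 11.4 CPM or less with low levels of all 3 genes, and coarct below 25 and 27 lie at the upper right of each panel.

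Setting coarct above against sham above asks how PVAT on the high-pressure side differs from PVAT of the same place in shams. By edgeR 0 of 32 Wnt genes tested passed, beside 0 of all 14556 genes (0%), and DESeq2 (0.0342% of all genes it tested) and limma also called 0 of the Wnt genes. An unadjusted p under 0.05 was found for 4 of 32, beside 523 of 14556 genes (3.59%), and the median log2 difference was -0.11, beside 0.01 over all genes. The lowest p belonged to Fzd3, with 0.122 ± 0.0599 FPKM in coarct above (n = 6) and 0.25 ± 0.132 FPKM in sham above (n = 5), a difference of -0.99 in log2 (SE 0.372, edgeR adjusted p = 0.999). Rspo4 had 1.97 ± 0.378 and 1.15 ± 0.681 FPKM in coarct and sham (0.85, SE 0.321, adjusted p = 0.999), with all 6 coarct libraries over the sham median, and Wnt9a 1.09 ± 0.523 and 0.584 ± 0.191 FPKM (0.95, SE 0.387, adjusted p = 0.999). The fourth was Wnt9b, at -2.15 (SE 1.01, adjusted p = 0.999). Abundant members were measured more closely, Fzd4 at 0.14 (SE 0.131), Lrp5 at 0.12 (SE 0.121), Wnt11 at 0.03 (SE 0.151) and Wnt5a at -0.11 (SE 0.133), while Lrp6, at -0.42 (SE 0.399), was not.

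The comparison of coarct below with sham below asks the same of PVAT on the low-pressure side. By edgeR 0 of 32 passed, beside 0 of 14556 genes (0%), and DESeq2 (0.00427% of all genes it tested) and limma gave 0. Without sham below 28, 1 of the neuron-rich libraries, 169 of all genes and still 0 Wnt genes passed. In the full comparison an unadjusted p under 0.05 was found for 2, beside 746 of 14556 genes (5.13%). Sfrp5 had the lowest p, with 3.70 ± 1.84 FPKM in coarct below (n = 6) and 1.88 ± 0.805 FPKM in sham below (n = 5), a log2 difference of 0.86 (SE 0.348, adjusted p = 0.881). Dkk3 had 2.17 ± 1.14 FPKM in coarct below and 1.06 ± 0.57 FPKM in sham below (0.89, SE 0.415, adjusted p = 0.881), with the neuron-rich libraries described for it above unevenly spread, 4 of 6 in coarct and 1 of 5 in sham. Wnt6, a ligand of epithelia, had 0.381 ± 0.309 and 0.155 ± 0.113 FPKM in coarct and sham (1.17, SE 0.603, adjusted p = 0.881), and without the neuron-rich libraries its difference was -0.21. Fzd4 differed by 0.01 (SE 0.131), Wnt5a by -0.15 (SE 0.133), Wnt11 by -0.27 (SE 0.151), Rspo1 by 0.47 (SE 0.364) and Wnt2b by 0.94 (SE 0.519).

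The comparison of sites within a rat group asks how PVAT above the ligature differs from PVAT below it. In coarcted rats 0 of 32 passed by edgeR, DESeq2 or limma, beside 15 of 14556 genes by edgeR (0.103%) and 0.982% by DESeq2, and 1 had an unadjusted p under 0.05, beside 5.43% of all genes. This was Wnt6, with 0.11 ± 0.0535 FPKM in coarct above and 0.381 ± 0.309 FPKM in coarct below (n = 6 each), a difference of -1.69 in log2 (SE 0.579, edgeR adjusted p = 0.31), which was 0.016 without the neuron-rich libraries. Dkk4 followed at -0.20 (SE 0.103) and Fzd3 at -0.67 (SE 0.36), both at an adjusted p of 1.0. In shams 0 of 32 passed by edgeR, DESeq2 or limma, beside 10 of 14556 by edgeR (0.0687%) and 0.179% by DESeq2, and 3 had an unadjusted p under 0.05, beside 5.33% of all genes. These were Dkk3, with 2.79 ± 1.33 FPKM in sham above and 1.06 ± 0.57 FPKM in sham below (1.28, SE 0.432, adjusted p = 0.756), Rspo3, with 0.214 ± 0.0745 and 0.111 ± 0.0345 FPKM above and below (0.83, SE 0.343, adjusted p = 0.892), and Wnt9b, with 0.517 ± 0.612 and 0.0752 ± 0.113 FPKM above and below (2.70, SE 1.14, adjusted p = 0.892). Most Wnt9b counts in sham above came from libraries 24 and 26, with 57 and 98 counts.

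The interaction of site with surgery asks whether the above-to-below difference changed with the ligature, coarct minus sham. By edgeR 0 of 32 passed, beside 0 of 14556 genes (0%), and DESeq2 and limma gave 0; 5 had an unadjusted p under 0.05, beside 352 of 14556 (2.42%). These were Fzd3 at -1.48 (SE 0.532), Wnt6 at -2.37 (SE 0.857), Rspo4 at 1.09 (SE 0.449), Sfrp5 at -1.11 (SE 0.485) and Dkk3 at -1.26 (SE 0.576), each with an edgeR adjusted p of 1.0. In BAT, coarct against sham gave 0 of 26 by edgeR, DESeq2 or limma, beside 0 of 13644 genes (0%), and an unadjusted p under 0.05 for 2, beside 928 of 13644 (6.8%). Wnt2 had 0.629 ± 0.522 FPKM in coarct BAT (n = 5) and 1.55 ± 0.359 FPKM in sham BAT (n = 4), a log2 difference of -1.18 (SE 0.467, adjusted p = 0.652). Wnt11 had 6.77 ± 1.79 and 5.41 ± 1.28 FPKM in coarct and sham (0.47, SE 0.21, adjusted p = 0.652), and Rspo1 0.459 ± 0.117 and 0.826 ± 0.239 FPKM (-0.69, SE 0.317, adjusted p = 0.652). The wider SEs of low genes mean that sizeable differences in them could not be seen at this number of libraries.

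**Figure D5:**
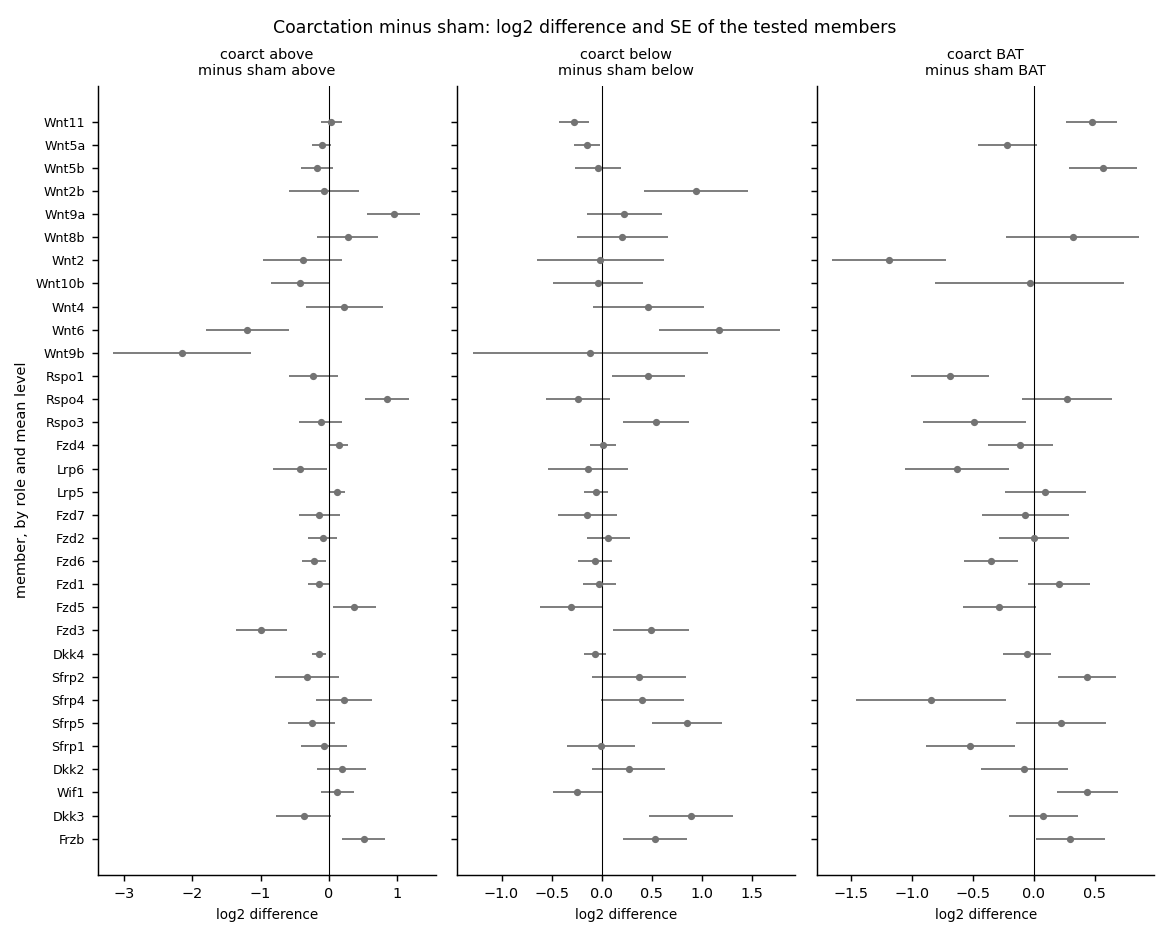
Log2 difference, coarct minus sham, with its SE for each gene tested (y axis, by role and mean level) in PVAT above, PVAT below and BAT, each panel with its own x range. No point is marked as called, and the abundant Fzd4, Lrp5, Wnt11 and Wnt5a have short error bars in PVAT, with SEs of 0.12 to 0.151.

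Other genes of the pathway were read from 3 lists. Of the coreceptor and secretion list, 18 of its 24 genes were tested against BAT, and Gpc3, a glypican that binds Wnt and Hedgehog proteins, rose in PVAT in all 4 comparisons. The list's share called was 5.56% in coarct above, 11.1% in coarct below, 5.56% in sham above and 5.56% in sham below, where 1.28%, 4.2%, 0.648% and 0.81% of all genes were called. Gpc3 averaged 11.3 ± 3.86 FPKM in coarct above, 11.9 ± 4.34 in coarct below and 2.30 ± 1.03 in coarct BAT, and 12.9 ± 4.65 in sham above, 8.67 ± 3.27 in sham below and 2.09 ± 2.0 in sham BAT. Its log2 differences were 2.12 (SE 0.295, edgeR adjusted p = 0.000713), 2.17 (SE 0.295, adjusted p = 0.00054), 2.59 (SE 0.435, adjusted p = 0.00805) and 2.11 (SE 0.428, adjusted p = 0.0338) in coarct above, coarct below, sham above and sham below. Lgr4, an R-spondin receptor, was the only other gene of this list to pass, in coarct below (0.57, SE 0.155, adjusted p = 0.0462). Of the intracellular list, 33 of 34 genes were tested and Gsk3b, the kinase that marks beta-catenin for breakdown, rose in coarct below (0.78, SE 0.19, adjusted p = 0.0289), 1 of 33 or 3.03%, below the 4.2% of all genes, with 0 calls in the other 3. Of the target and feedback list, 13 of 18 genes were tested and Apcdd1, a membrane inhibitor of Wnt signalling and itself a target, fell in sham below (-1.69, SE 0.292, adjusted p = 0.0119), 1 of 13 or 7.69%, beside 0.81% of all genes, with 0 calls in the other 3. The median log2 differences of the target list were -0.12 in coarct above, -0.15 in coarct below, 0.03 in sham above and -0.16 in sham below, beside medians of -0.02 to 0.00 over all genes. None of the 3 lists held a called gene in the 6 comparisons without a depot contrast.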

How the data were processed

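Bulk RNA was sequenced from 22 PVAT and 9 BAT libraries. The authors deposited raw read counts per gene and an FPKM table, and the submitters' processing notes name STAR (version 2.5), HTSeq (version 0.6.1) and DESeq2 (version 1.24.0) without a stated role. The deposited FPKM equal count over gene length over library total (largest relative deviation 6.85e-15). Genome build and strand setting: not given in the sources used here.

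Counts were tested with edgeR 4.0.16 (R 4.3.3; TMM, filterByExpr, quasi-likelihood), with Benjamini-Hochberg adjustment over all genes and a threshold of 0.05, in 4 fits: 22 PVAT, 9 BAT, 17 coarct and 14 sham libraries. Alternatives used DESeq2 1.42.0 and limma 3.58.1 on log2(FPKM + 1), with genes of at least 0.1 FPKM. Members and lists were chosen with earlier results of these data known. Genes named are those called, those of at least 1 FPKM in a group mean, and those of lowest p in each comparison; some others were named after their values were seen. Nothing states that libraries of a group came from separate rats, so p-values cover only the spread among these libraries, which may be technical. Title numbers are not stated to mark the same rat. A pair of the same number was counted as deviating together at a correlation over 0.1 of its deviations from group means. Only sham below with sham BAT met this in every pair (4 of 4, correlations 0.195 to 0.381), so the block's adjusted p is given there. In the coarct comparisons with BAT it is given for the calls that the block ended. Coarct above with coarct below met it in 5 of 6 (0.0516 to 0.389). Coarct below with coarct BAT met it in 4 of 5 (-0.00928 to 0.284). Coarct above with coarct BAT and sham above with sham below met it in 3 of 5 each, and sham above with sham BAT in 1 of 4. The fits reported do not use any such pairing. Depth was 15713160 to 26530733 counts a library; floors cover counting error only. Libraries rich in neuron, skeletal muscle or mitochondrial 12S rRNA reads were those past 100, 1000 and 500 CPM; the skeletal muscle limit was chosen after seeing the data.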

Additional observations from a re-analysis of the deposited data

Results flagged for a closer look

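Of 156 pairs of a gene and a group, over 26 genes, 16 held a library past Dixon's 95% value. The measure was the gap to the nearest of the others, as a share of the group's range. Chance alone passes about 1 in 20 groups where values are normally distributed. The FPKM were taken without a log and the share over all genes is not given here. No excess is therefore read into the 16 pairs. All values are FPKM.

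Inhibitors gave 7 of them. Dkk3 was high at 2.071 in sham below 28 (others 0.6776 to 0.891), at 0.6367 in coarct BAT 30 (others 0.3566 to 0.3949) and at 0.7448 in sham BAT 22 (others 0.3499 to 0.3711). Sfrp1 was high at 8.014 in sham below 24 (others 2.093 to 3.309) and at 2.576 in coarct BAT 30 (others 1.14 to 1.55). Sfrp2 was high at 15.43 in sham above 26 (others 2.983 to 6.246), and Sfrp4 at 10.79 in sham BAT 22 (others 0.8525 to 1.183).

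Receptors gave 5. Fzd1 was high at 2.999 in coarct above 19 (others 1.525 to 1.956) and at 2.643 in sham below 24 (others 1.403 to 1.752), and Fzd7 at 16.16 in sham above 22 (others 5.556 to 7.686). Fzd2 was low at 1.223 in sham BAT 20 (others 2.648 to 2.838), and Lrp6 at 8.831 in sham BAT 24 (others 16.05 to 17).

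Rspo4 was high at 2.333 in sham above 20 (others 0.6024 to 1.055) and low at 0.85 in coarct below 27 (others 1.512 to 1.77). Of the ligands, Wnt11 was high at 9.962 in coarct BAT 30 (others 5.679 to 6.195), and Wnt2 at 1.53 in coarct BAT 27 (others 0.2433 to 0.581). Coarct BAT 30 and sham below 28 also stood out in the comparisons of Sfrp1 and Dkk3.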

How the results depend on the processing

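All 130 alternative counts of Wnt genes in the 6 comparisons without a depot contrast were 0, as in the fit reported. In the PVAT comparisons they include a minimum log2 difference of 1. That setting only narrows the genes already called, so it could give nothing but 0 there. Of the 649 alternative values of single genes, called or not, 570 kept direction and side of the threshold, 77 kept direction only and 2 reversed. All 77 were lost calls. The 570 include the genes named without a call, which all stayed uncalled, so they overstate how well the calls held. Both reversals were Wnt6 without the neuron-rich libraries, -0.21 in coarct below against sham below and 0.016 in coarct above against coarct below, a setting that leaves 2 coarct below libraries.

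The counts against BAT moved more, and the cause was not tested. For coarct above (5) DESeq2's Wald test gave 9, limma 1, the fit without libraries rich in skeletal muscle transcripts 3, and leaving out 1 library 2 to 7. For coarct below (6) they gave 11 by DESeq2, 2 without neuron-rich libraries, 3 without skeletal muscle-rich ones and 4 to 10 leaving out 1 library. For sham above (2) DESeq2 gave 4, and leaving out 1 library always 2. For sham below (1) DESeq2 gave 6, limma 0, the spread from all 31 libraries 3 and mitochondrial rRNA as a term 2. The sham below count was 0 with the replicate block and without skeletal muscle-rich libraries, and 0 to 1 leaving out 1 library. In the sham depot fits the only skeletal muscle-rich library was sham BAT 22 and the only neuron-rich one sham below 28. For sham below each of those settings therefore repeats a fit leaving out 1 library. The replicate block gave 5, 6 and 2 in the other depot comparisons and 0 in the PVAT comparisons it could be fitted to. In coarct it ended the calls of Wnt2b above (edgeR adjusted p = 0.0686) and Rspo4 below (edgeR adjusted p = 0.0721). In these 2 comparisons 3 of 5 and 4 of 5 pairs of the same number, in that order, were correlated over 0.1.

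Over all genes, coarct above against BAT had 183 calls by edgeR, against 495 by DESeq2, 52 by limma, 283 with the block and 96 without skeletal muscle-rich libraries. Coarct below against BAT had 600, against 1585, 301, 958 and 141 in the same order, 82 without neuron-rich libraries and 338 with a minimum log2 difference of 1. Sham above against BAT had 92, against 243 by DESeq2 and 59 by limma, and sham below 115, against 329 and 34, and 65 without skeletal muscle-rich libraries. Coarct above against coarct below had 15, against 230 by DESeq2, 0 by limma, 42 with the block, 183 with the spread from all libraries and 1 without neuron-rich libraries, and sham above against sham below 10, against 42, 4, 56, 16 and 0 in the same order. Leaving out 1 library moved these counts as well. Without coarct BAT 27 they were 913 for coarct above and 2621 for coarct below against BAT, and otherwise 89 to 181 and 284 to 708. Coarct above against coarct below had 185 without coarct below 19, 180 without coarct below 27 and otherwise 12 to 22; sham above against sham below had 23 without sham above 20 and otherwise 8 to 9. Sham above against BAT had 59 to 100 and sham below against BAT 47 to 157. Coarct below against sham below had 169 without sham below 28 and coarct BAT against sham BAT 1 without sham BAT 22, where all others gave 0. Few libraries and low counts limit what can be seen for the rarer ligands.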
